A study of Mus musculus with 4 samples.

Results

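The genes described here are 10 fatty acid desaturases and elongases of mouse liver, Scd1, Scd2, Scd3, Scd4, Fads1, Fads2, Elovl1, Elovl2, Elovl3 and Elovl5, among the 22103 gene entries of an RNA-seq table. They were taken by symbol, and the family was chosen because Scd3 and Scd4 had been seen to rise in the knockout livers of these samples. The difference of the 4 Scd paralogs between the genotypes is therefore given as a description without a test. The values that chose them are the levels of Scd3 and Scd4 in all 4 livers.

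Whole livers of 4 male mice were profiled, 2 WT and 2 Brg1LKO, to ask which hepatic genes depend on Brg1 during alcoholic liver injury. Brg1LKO mice were made by crossing Smarca4 f/f mice with Alb-Cre mice, so that Smarca4, which encodes the ATPase Brg1 of the BAF chromatin remodelling complex, is lost in hepatocytes while other liver cells keep it, and WT mice were littermates. The mice were 8 weeks old, and all 4 drank alcohol for 15 days according to the labels, which the study describes as a Lieber-DeCarli ethanol liquid diet that ended with a single ethanol gavage. A group fed without alcohol was not analysed here, so every value below is from an alcohol-exposed liver. The WT mice are not described further, so whether they carried floxed alleles is not given in the sources used here.

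Fatty acid desaturases and elongases remodel fatty acids made in the liver or taken up from the diet. The Scd enzymes place the first double bond into stearate and palmitate and give oleate and palmitoleate, the main monounsaturated fatty acids of stored triglyceride. Fads1 and Fads2 add double bonds nearer the carboxyl end of dietary polyunsaturated precursors, while the Elovl enzymes carry out the condensation that lengthens the chain. The transcription factor SREBP-1c and the oxysterol receptor LXR are well known to drive Scd1, Fads1, Fads2 and Elovl5 in liver.

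The Scd genes lie side by side on chromosome 19. By GENCODE annotation of GRCm38, Scd3 spans chr19:44203269-44244016 on the plus strand, Scd2 chr19:44293674-44306864 on the plus strand, Scd4 chr19:44333092-44346743 on the plus strand and Scd1 chr19:44394455-44407709 on the minus strand. The cluster covers 204 kb, and each gene has 6 exons. The genomic sequence just upstream of the RefSeq start sites of Scd3 and Scd4 is shown because these are the paralogs whose rise drew attention to the family. Each window holds the 250 bases before the start site, from the RefSeq table for GRCm38.p6, at chr19:44203038-44203287 for Scd3 and chr19:44333076-44333325 for Scd4, both on the plus strand. The GENCODE starts given above, 44203269 for Scd3 and 44333092 for Scd4, lie inside these windows. Most of the Scd4 window and the last bases of the Scd3 window are thus within the GENCODE span of the gene. Capitals mark the runs of at least 9 bases that both windows share.
Scd3: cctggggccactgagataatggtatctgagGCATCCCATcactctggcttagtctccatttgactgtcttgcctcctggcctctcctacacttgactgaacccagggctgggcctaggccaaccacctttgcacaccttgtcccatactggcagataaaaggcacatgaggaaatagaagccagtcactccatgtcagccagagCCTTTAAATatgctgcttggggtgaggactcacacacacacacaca
Scd4: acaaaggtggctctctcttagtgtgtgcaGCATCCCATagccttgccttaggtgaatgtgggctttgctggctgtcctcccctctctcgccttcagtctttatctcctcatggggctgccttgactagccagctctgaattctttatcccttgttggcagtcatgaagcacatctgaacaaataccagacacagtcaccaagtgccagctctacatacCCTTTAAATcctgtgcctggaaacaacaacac

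The upstream run GCATCCCAT began at position -220 relative to the start site of Scd3 and at -221 for Scd4, and was held by 30 of 32851 windows of the table, or 0.0913%. The run nearer the start, CCTTTAAAT, began at -46 in Scd3 and at -32 in Scd4, and was held by 83 windows, or 0.253%. Both runs were picked because the windows of Scd3 and Scd4 share them. Their shares over all windows therefore do not say how often any pair of windows shares such a run, which was not tested. Windows were given for 6 of the 10 genes, namely Scd3, Scd4, Fads2, Elovl1, Elovl2 and Elovl5. Both strands of these windows were searched for the E-box CACGTG, the sterol element letters TCACNCCAC, the CCAAT box and TATAAA. Elovl5 held the E-box at -161 and CCAAT on the minus strand at -71 and -17, Elovl1 held CCAAT at -35, and the other 4 windows held no match. Among all windows of the same length, CCAAT was in 33.8%, TATAAA in 12.4%, CACGTG in 6.02% and TCACNCCAC in 1.05%. A match is a description of letters, and a missing match says only that these letters are not in these windows.

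The values are FPKM, fragments scaled to transcript length and to the mapped total, as deposited for each liver, and pairs of values are given as replicate 1 and then replicate 2. Read steps in the low values put the depth at an estimated 72554600 to 80878100 fragments per liver. Smarca4, the targeted gene, was at 1.79 and 1.95 FPKM in WT replicates 1 and 2 and 0.608 and 0.579 FPKM in Brg1LKO replicates 1 and 2, a log2 fold change of -1.50 (SE 0.34). The labels of the livers and the targeted gene therefore point the same way, and some Smarca4 RNA was left in both Brg1LKO livers. Alb, the hepatocyte marker, was at 10710 to 12490 FPKM, so the labelled tissue held its defining transcript in every liver. Over the 6 hepatocyte markers listed, the log2 fold changes ran from -0.27 to 0.46. For 2 of them, Apob and Cps1, both Brg1LKO livers were above both WT livers, beside 10.7% of all genes tested. Apoa1 and Serpina1a were lowest in Brg1LKO replicate 1, and the other listed markers were lowest in a WT liver. In whole tissue, fewer cells of a type and less RNA per cell cannot be told apart. The 12346 genes that averaged 0.1 FPKM or more were compared by limma on log2(FPKM + 0.1), and a gene counted as past the threshold at an unadjusted p under 0.05 and more than a 2-fold change, the thresholds of the study. No gene of the 12346 passed an adjusted p of 0.05 by Benjamini-Hochberg, while 247 genes had an unadjusted p under 0.05. Without Brg1LKO replicate 1 the adjusted count was 269 genes and without Brg1LKO replicate 2 it was 140, while it stayed at 0 without either WT liver.

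With 2 livers per group, an exact permutation test of any single gene cannot give a two-sided p below 0.333. Before any gene is compared, the 2 Brg1LKO livers need to be told apart: Brg1LKO replicate 1 exceeded each of the other 3 livers at least 2-fold for 82 of 12346 genes, or 0.664%, and 4 of the 10 genes described here, Scd1 to Scd4, were among them. The same count was 330 genes for Brg1LKO replicate 2, 100 for WT replicate 2 and 11 for WT replicate 1. For the 10 genes, a difference that rests on Brg1LKO replicate 1 is given with and without that liver.

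All 10 genes passed the filter on low values. Of them, 4 were past the threshold, all higher in the Brg1LKO livers, beside 121 of all genes tested in either direction, or 0.98%, and 54 higher, or 0.437%. These 4 were the Scd paralogs, which were selected on this contrast, so their count carries no weight of its own. It was 0 without the filter on low values, under median-ratio or quantile scaling of the livers, and without WT replicate 2 or Brg1LKO replicate 1. The log2 fold changes themselves were 1.34, 1.42, 1.76 and 1.72 for Scd1 to Scd4 under median-ratio scaling, against 1.31, 1.39, 1.74 and 1.70, so this scaling moved the calls and hardly the size of the difference. Both Brg1LKO livers were above both WT livers for 5 of the 10 genes, Scd2, Scd3, Scd4, Elovl2 and Elovl5, beside 10.7% of all genes tested. Outside the Scd cluster it was 2 of 6 genes. These counts are of the deposited FPKM. The median-ratio factors were 0.9109 for WT replicate 1 and 1.108 for Brg1LKO replicate 2. Divided by these, Brg1LKO replicate 2 lay below WT replicate 1 for Scd2, Scd3 and Scd4. None of the 10 was below both WT livers in both Brg1LKO livers, beside 10.02% of all genes tested, which is 1 gene in 10. The median log2 fold change, Brg1LKO minus WT on the log2(FPKM + 0.1) scale, was 0.55 over the 10 genes, 1.54 over the 4 Scd genes, 0.27 over the 2 Fads genes and 0.12 over the 4 Elovl genes, beside -0.024 over all genes tested.

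**Figure D1:**
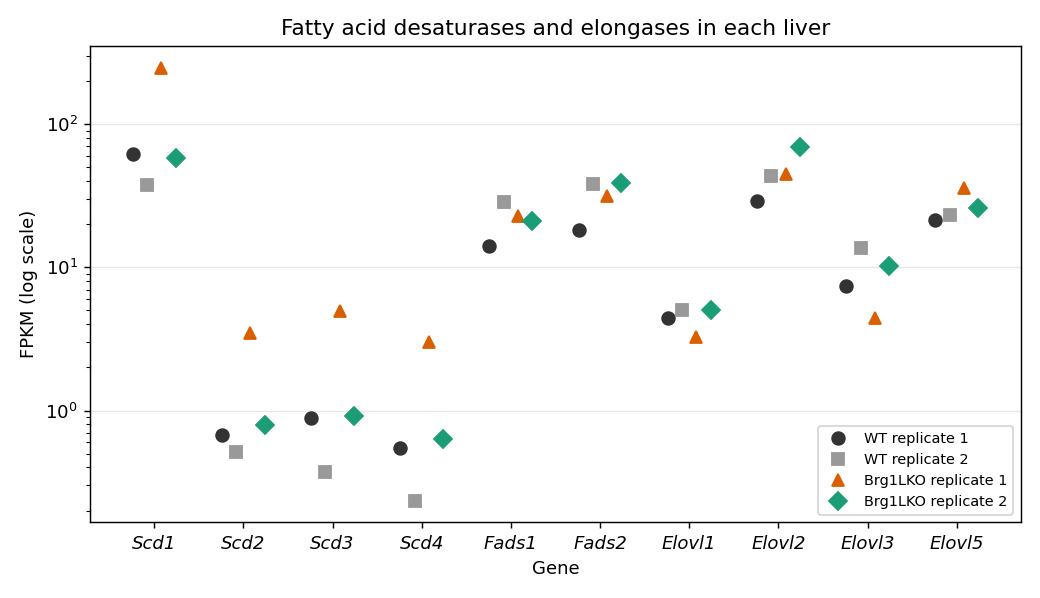
FPKM on a log scale (y axis) of the 10 desaturase and elongase genes (x axis), with 1 point per liver for WT replicates 1 and 2 and Brg1LKO replicates 1 and 2. Brg1LKO replicate 1 is the highest point of all 4 Scd genes, at 249 FPKM for Scd1, while Brg1LKO replicate 2, at 57.7 FPKM, lies between the WT livers for Scd1.

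Scd1, the main hepatic stearoyl-CoA desaturase, was at 62.3 and 37.7 FPKM in WT and 249 and 57.7 FPKM in Brg1LKO livers. Brg1LKO replicate 1 alone stood high, 4.001 times the next liver, whereas Brg1LKO replicate 2 lay between the WT livers and the groups overlapped. The group means were 50 ± 17.4 FPKM in WT and 154 ± 135 FPKM in Brg1LKO livers (SD, n = 2 each), a ratio of 3.07 with a log2 fold change of 1.31. Without Brg1LKO replicate 1 the log2 fold change of Scd1 was 0.25. By qPCR in a larger set of mice under the same feeding model, the study reports Scd1 as lower in Brg1LKO than in WT livers. That is the other direction from the means here, and the reason was not tested.

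Scd3, a paralog best known from skin, was at 0.890 and 0.372 FPKM in WT and 4.99 and 0.921 FPKM in Brg1LKO livers. The value of Brg1LKO replicate 1 was 5.42 times that of the next liver, which was Brg1LKO replicate 2 at 103.5% of WT replicate 1. The groups did not overlap in the deposited FPKM, but by this small margin, which median-ratio scaling reversed. The means were 0.631 ± 0.367 FPKM in WT and 2.95 ± 2.88 FPKM in Brg1LKO livers (SD, n = 2 each), with a log2 fold change of 1.74, and 0.58 without Brg1LKO replicate 1.

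Scd4, a paralog best known from heart, was at 0.549 and 0.235 FPKM in WT and 3.03 and 0.629 FPKM in Brg1LKO livers. Again Brg1LKO replicate 1 stood apart, at 4.81 times the next liver, and Brg1LKO replicate 2 was at 114.5% of WT replicate 1. The means were 0.392 ± 0.223 FPKM in WT and 1.83 ± 1.70 FPKM in Brg1LKO livers (SD, n = 2 each), with a log2 fold change of 1.70, and 0.65 without Brg1LKO replicate 1. The estimated fragments behind these values were 147 and 62 in WT and 782 and 151 in Brg1LKO livers.

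Scd2, a paralog best known from brain and from the developing liver, was at 0.671 and 0.512 FPKM in WT and 3.48 and 0.798 FPKM in Brg1LKO livers. It had the same order of livers as Scd3 and Scd4, with Brg1LKO replicate 1 at 4.36 times the next liver. The means were 0.591 ± 0.112 FPKM in WT and 2.14 ± 1.90 FPKM in Brg1LKO livers (SD, n = 2 each), with a log2 fold change of 1.39, and 0.39 without Brg1LKO replicate 1.

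**Figure D2:**
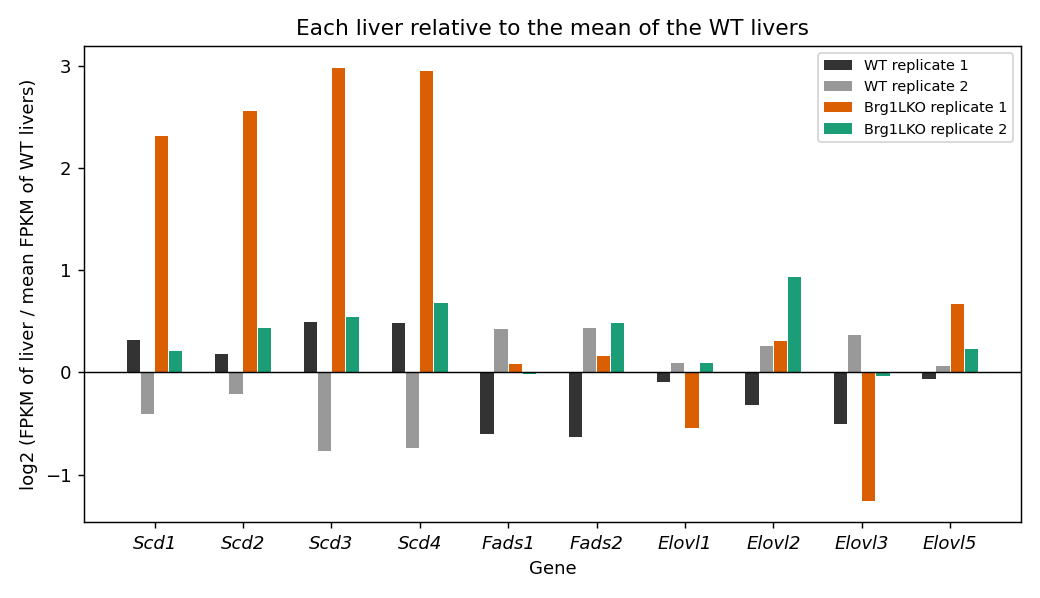
Log2 ratio of the FPKM of each liver to the mean FPKM of the WT livers (y axis) for the 10 genes (x axis), with 1 bar per liver. For Scd1, Scd2, Scd3 and Scd4 the bar of Brg1LKO replicate 1 corresponds to 4.99, 5.89, 7.91 and 7.72 times the WT mean, and that of Brg1LKO replicate 2 to 1.16, 1.35, 1.46 and 1.61 times.

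The WT livers also differed from each other in the Scd genes: in the deposited FPKM all 4 Scd genes were higher in WT replicate 1 than in WT replicate 2, whereas all 6 Fads and Elovl genes were higher in WT replicate 2. The median-ratio factors of WT replicates 1 and 2 were 0.9109 and 1.127, so a typical gene was also higher in WT replicate 2. Divided by these factors, Elovl1 and Elovl5 were higher in WT replicate 1. Of all genes tested, ranked by how far Brg1LKO replicate 1 stood above the highest of the other livers, Scd3 was at place 2, Scd4 at place 8, Scd2 at place 10 and Scd1 at place 11 of 12346. Elovl5 was at place 351 and Elovl3 at place 11649. Thrsp, a gene that is known to promote lipogenesis, was at place 9.

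The proportions among the paralogs moved little next to their levels. The summed FPKM of the 4 Scd genes was 64.4 and 38.8 in WT and 260.7 and 60.1 in Brg1LKO livers, and Scd1 held 96.7%, 97.1%, 95.6% and 96.1% of it in that order. Scd3 was 1.43% and 0.985% of Scd1 in WT and 2.00% and 1.60% in Brg1LKO livers. Scd4 was 0.882% and 0.622% of Scd1 in WT and 1.21% and 1.09% in Brg1LKO livers. Both shares were thus higher in both Brg1LKO livers than in both WT livers, also in Brg1LKO replicate 2, where Scd1 itself was within the WT range. For Scd2 the share was 1.08% and 1.36% in WT and 1.40% and 1.38% in Brg1LKO livers, close to each other in 3 of the 4 livers. Scd3 and Scd4 kept a ratio of 1.62 and 1.58 in WT and 1.65 and 1.46 in Brg1LKO livers. These shares use the levels that chose Scd3 and Scd4, and they are given as a description.

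**Figure D3:**
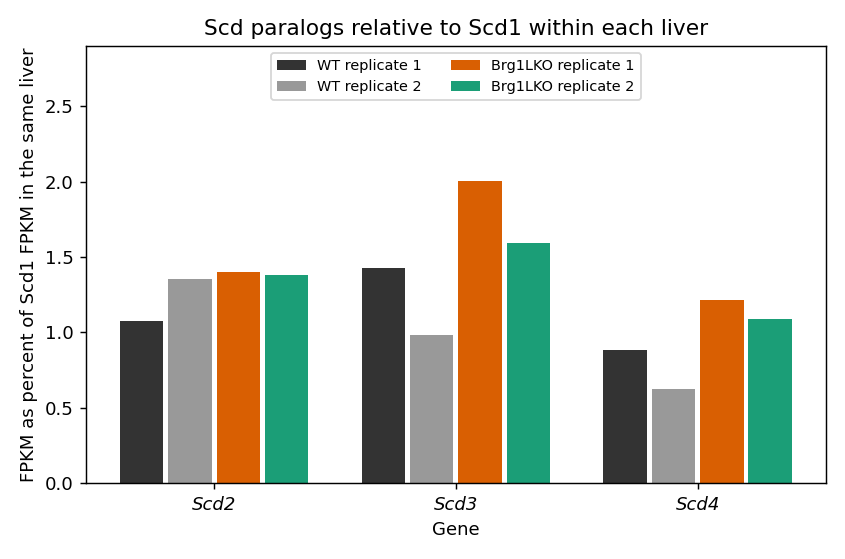
FPKM of Scd2, Scd3 and Scd4 as a percentage of the Scd1 FPKM of the same liver (y axis), with 1 bar per liver. Scd3 and Scd4 are a larger share of Scd1 in both Brg1LKO livers, at 2.00% and 1.60% for Scd3, than in both WT livers, at 1.43% and 0.985%.

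The paralogs are close enough in sequence for reads to be shared. Over the coding sequence of the annotated transcripts, Scd1 was 90.4% identical to Scd3, 89.8% to Scd2 and 84.4% to Scd4, and Scd3 was 83.4% identical to Scd4. The longest identical stretch between transcripts was 185 bases for Scd1 and Scd3, 147 for Scd1 and Scd2 and 116 for Scd1 and Scd4. A single end of 150 bases could therefore fit both Scd1 and Scd3 without a mismatch at 36 of 4683 positions of Scd1, or 0.769%, and no such position was found for the other pairs. The length of 150 bases is that given by the study, before trimming, and the labels name another library protocol. For stretches of 50 bases, 3.03% of the Scd1 positions were shared with Scd2, 3.49% with Scd3 and 1.76% with Scd4. If Scd1 reads lay evenly on the transcript, 187 and 112 of them would fall there in WT and 723 and 156 in Brg1LKO livers, beside estimated Scd3 counts of 251 and 103 and of 1360 and 233. The part of shared reads in the Scd2, Scd3 and Scd4 values was not tested, and their levels are uncertain for this reason.

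Genes next to the cluster did not share the profile. Within 250 kb on either side the table listed 12 genes other than Scd genes, of which 10 were tested. Their ratio of Brg1LKO replicate 1 to the highest other liver ran from 0.566 for Bloc1s2 to 1.29 for Chuk, whereas that of the 4 Scd genes ran from 4.001 to 5.416. Of all genes tested, only 0.664% had this ratio at 2 or more, so 10 genes from anywhere would mostly lack it too. Across the 7732 genes that averaged 1 FPKM or more, the profile nearest to that of Scd3 was that of Scd4, with a Euclidean distance of 0.179 over the centred log2(FPKM + 0.1) values of the 4 livers. Scd1 followed at 0.519 and Scd2 at 0.669. For Scd4 the order was Scd3, Scd1 at 0.423 and Scd2 at 0.544. For Scd1 it was Scd2 at 0.297, Scd4 at 0.423 and Tiparp, a gene known to be induced through the aryl hydrocarbon receptor, at 0.451. Tiparp was at 0.841 and 0.515 FPKM in WT and 2.89 and 0.545 FPKM in Brg1LKO livers. These distances are a description that carries no support: Scd3 and Scd4 were chosen for their rise in the same livers, and Scd2, Scd3, Scd4 and Tiparp averaged 1 FPKM only through Brg1LKO replicate 1.

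**Figure D4:**
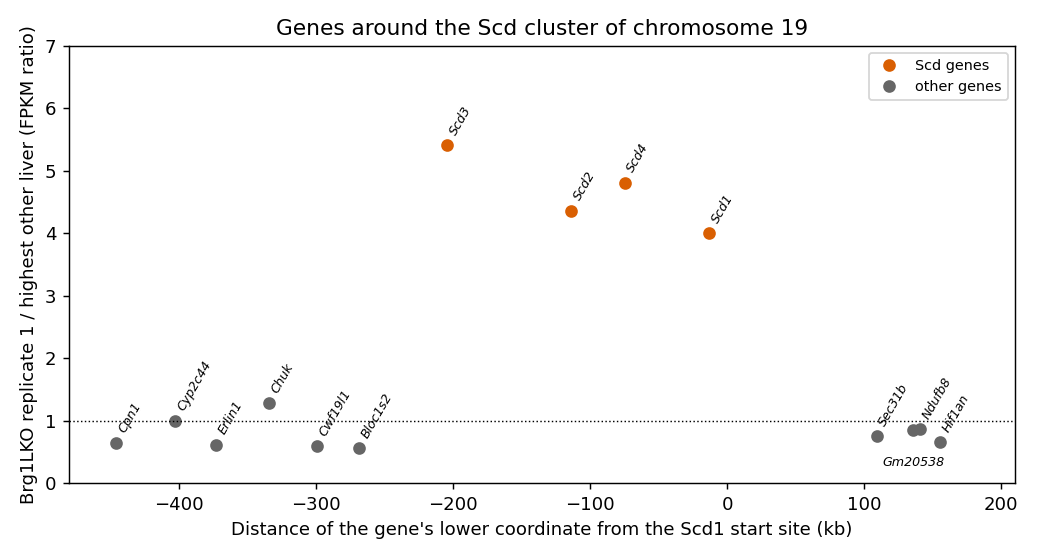
Ratio of the FPKM of Brg1LKO replicate 1 to that of the highest other liver (y axis) for each tested gene within 250 kb of the Scd cluster, placed by the distance of its lower coordinate from the Scd1 start site in kb (x axis). The 4 Scd genes lie between 4.001 and 5.416, and the 10 other genes lie between 0.566 and 1.29.

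Fads1 and Fads2, the desaturases that lead to arachidonate and docosahexaenoate, lie near each other elsewhere on chromosome 19, Fads2 at chr19:10062765-10101746 on the minus strand and Fads1 at chr19:10182888-10196874 on the plus strand. Fads1 was at 14.1 and 28.8 FPKM in WT and 22.8 and 21.3 FPKM in Brg1LKO livers. Both Brg1LKO values lay between the WT values, which differed 2.04-fold from each other. The means were 21.5 ± 10.4 FPKM in WT and 22.0 ± 1.06 FPKM in Brg1LKO livers (SD, n = 2 each), with a log2 fold change of 0.12 (95% interval -0.69 to 0.94, limma with Benjamini-Hochberg adjustment, adjusted p = 1.00), and -0.39 without WT replicate 1.

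Fads2 was at 18.1 and 38.1 FPKM in WT and 31.4 and 39.2 FPKM in Brg1LKO livers. The groups overlapped, with WT replicate 1 alone low. The means were 28.1 ± 14.1 FPKM in WT and 35.3 ± 5.55 FPKM in Brg1LKO livers (SD, n = 2 each), and the log2 fold change was 0.42 (95% interval -0.41 to 1.24, limma with Benjamini-Hochberg adjustment, adjusted p = 1.00). Without WT replicate 1 it was -0.12. A change of 2-fold upward in Fads2 thus lay within the interval and could not be told from no change with these livers. Fads2 was 1.28 and 1.32 times Fads1 in WT and 1.38 and 1.84 times in the Brg1LKO livers. Scd1, by contrast, was 3.44 and 0.991 times Fads2 in the WT livers and 7.95 and 1.47 times in the Brg1LKO livers, a far wider range than that of Fads2 to Fads1.

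Elovl2 and Elovl5, which lengthen polyunsaturated chains, were the genes outside the Scd cluster whose groups did not overlap. Elovl2, at chr13:41182499-41220162 on the minus strand, was at 29.1 and 43.3 FPKM in WT and 44.8 and 69.1 FPKM in Brg1LKO livers. Brg1LKO replicate 1 was barely above WT replicate 2, and Brg1LKO replicate 2 was the highest. The means were 36.2 ± 10.1 FPKM in WT and 56.9 ± 17.2 FPKM in Brg1LKO livers (SD, n = 2 each), and the log2 fold change was 0.65 (95% interval -0.12 to 1.41, limma with Benjamini-Hochberg adjustment, adjusted p = 1.00).

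Elovl5, at chr9:77917364-77984519 on the plus strand, was at 21.4 and 23.3 FPKM in WT and 35.7 and 26.2 FPKM in Brg1LKO livers. Here Brg1LKO replicate 1 was the highest, at 1.36 times the next liver, and the WT livers were close to each other. The means were 22.4 ± 1.37 FPKM in WT and 30.9 ± 6.71 FPKM in Brg1LKO livers (SD, n = 2 each), and the log2 fold change was 0.45 (95% interval -0.27 to 1.17, limma with Benjamini-Hochberg adjustment, adjusted p = 1.00), and 0.23 without Brg1LKO replicate 1. The ratio of Elovl2 to Elovl5 was 1.36 and 1.86 in WT and 1.26 and 2.64 in Brg1LKO livers, so the 2 elongases were not highest in the same liver.

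Elovl1 and Elovl3 act mainly on saturated and monounsaturated very long chains. Elovl1, at chr4:118428093-118432953 on the plus strand, was at 4.44 and 5.04 FPKM in WT and 3.25 and 5.06 FPKM in Brg1LKO livers, with Brg1LKO replicate 1 alone low. The means were 4.74 ± 0.426 FPKM in WT and 4.15 ± 1.28 FPKM in Brg1LKO livers (SD, n = 2 each). The log2 fold change of Elovl1 was -0.22 (95% interval -0.97 to 0.54, limma with Benjamini-Hochberg adjustment, adjusted p = 1.00), and 0.10 without Brg1LKO replicate 1.

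Elovl3, at chr19:46131897-46135312 on the plus strand and known in mouse liver for its daily and sex-dependent rhythm, was at 7.44 and 13.6 FPKM in WT and 4.42 and 10.3 FPKM in Brg1LKO livers. The livers of a group differed more than the group means, 1.83-fold in WT and 2.33-fold in Brg1LKO livers against 1.43-fold, and Brg1LKO replicate 1 was the lowest. The means were 10.5 ± 4.37 FPKM in WT and 7.36 ± 4.16 FPKM in Brg1LKO livers (SD, n = 2 each), and the log2 fold change was -0.57 (95% interval -1.50 to 0.36, limma with Benjamini-Hochberg adjustment, adjusted p = 1.00). Without Brg1LKO replicate 1 it was 0.03 and without Brg1LKO replicate 2 it was -1.17, then past the threshold. The hour at which the livers were taken is not given in the sources used here, and its part in the Elovl3 values was not tested.

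By level per length, the 10 genes fell into a like order in both groups. In WT livers Scd1 was highest by its mean, followed by Elovl2, Fads2, Elovl5 and Fads1, and each of these neighbours overlapped in its livers. Elovl3 and then Elovl1 lay below them without overlap, and Scd3, Scd2 and Scd4 were lowest and overlapped with each other. In Brg1LKO livers Scd1 and Elovl2 still overlapped because of Brg1LKO replicate 2, where Elovl2 at 69.1 FPKM was above Scd1 at 57.7 FPKM. Below them Fads2 overlapped with Elovl5, Fads1 lay alone, and Elovl3, Elovl1, Scd3, Scd2 and Scd4 each overlapped with the next.

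The other genes of the pathway were taken from a list of 60, all found in the table, of which 54 passed the filter on low values and 3 were at 0 in every liver. The list held the enzymes that make palmitate, the partners of the elongases and desaturases, acyl-CoA synthetases, peroxisomal enzymes and regulators. None of the 54 was past the threshold in either direction by limma, 1 had an unadjusted p under 0.05, and the median log2 fold change was 0.01. Both Brg1LKO livers were above both WT livers for 10 of the 54, and below for 1, beside 10.7% and 10.02% of all genes tested.

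Among the genes of de novo synthesis, Fasn, the fatty acid synthase, was at 9.06 and 10.4 FPKM in WT and 18.1 and 16.6 FPKM in Brg1LKO livers. In contrast to the Scd genes, both Brg1LKO livers were high and close to each other. The study's qPCR in a larger set of mice had Fasn, Acc1 (Acaca) and Srebp1 (Srebf1) lower in Brg1LKO than in WT livers. For Fasn and Acaca the values here went the other way, and the reason was not tested. The log2 fold change of Fasn was 0.83 (95% interval 0.12 to 1.54, limma with Benjamini-Hochberg adjustment, adjusted p = 1.00). Elovl6, the elongase that makes stearate from palmitate and so a substrate of Scd1, was at 1.25 and 1.56 FPKM in WT and 2.20 and 2.48 FPKM in Brg1LKO livers. Its groups did not overlap, with a log2 fold change of 0.71 (SE 0.34), under the 2-fold limit.

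Acly, which makes cytosolic acetyl-CoA, was at 12.6 and 14.6 FPKM in WT and 17.0 and 23.4 FPKM in Brg1LKO livers. Acaca, which makes malonyl-CoA, was at 1.63 and 2.18 FPKM in WT and 2.28 and 3.24 FPKM in Brg1LKO livers. Both were higher in both Brg1LKO livers without passing the threshold, with log2 fold changes of 0.55 (SE 0.34) and 0.51 (SE 0.35). Thrsp was at 11.5 and 20.4 FPKM in WT and 89.2 and 10.6 FPKM in Brg1LKO livers. It was high in the same liver as the Scd genes and lowest in Brg1LKO replicate 2, so that its log2 fold change of 1.01 (SE 0.68) became -0.52 without Brg1LKO replicate 1.

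**Figure D5:**
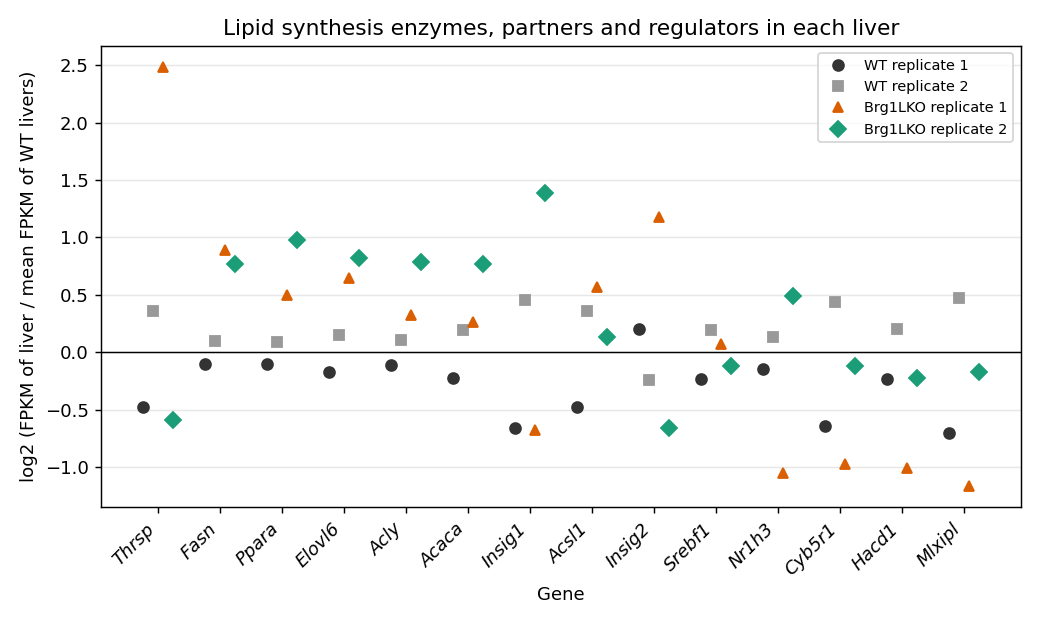
Log2 ratio of the FPKM of each liver to the mean FPKM of the WT livers (y axis) for lipid synthesis enzymes, their partners and regulators (x axis), with 1 point per liver. For Fasn, Ppara, Elovl6, Acly and Acaca both Brg1LKO livers lie above both WT livers, and for Thrsp and Insig2 Brg1LKO replicate 1 alone is high, at 89.2 and 383.6 FPKM.

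Of 23 regulators listed, 22 were tested and none was past the threshold, beside 0.98% of all genes tested, which comes to less than 1 gene in a list of this size. Their median log2 fold change was 0.01. Srebf1, which encodes SREBP-1c, was at 13.2 and 17.8 FPKM in WT and 16.3 and 14.3 FPKM in Brg1LKO livers, and both Brg1LKO values lay between the WT values. Nr1h3, which encodes LXR alpha, was at 32.3 and 39.2 FPKM in WT and 17.3 and 50.1 FPKM in Brg1LKO livers. It was lowest in the liver where the Scd genes were highest. Mlxipl, which encodes the carbohydrate sensor ChREBP, was at 6.83 and 15.4 FPKM in WT and 4.96 and 9.86 FPKM in Brg1LKO livers, and it too was lowest in Brg1LKO replicate 1.

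Insig1 and Insig2 encode the proteins that hold SREBP in the endoplasmic reticulum. Insig2 was at 194.8 and 143.6 FPKM in WT and 383.6 and 106.9 FPKM in Brg1LKO livers, high in the same liver as the Scd genes and lowest in Brg1LKO replicate 2. Insig1 was at 3.97 and 8.57 FPKM in WT and 3.91 and 16.4 FPKM in Brg1LKO livers, the reverse order of the Brg1LKO livers. Ppara, the fasting and fatty acid receptor, was at 1.58 and 1.80 FPKM in WT and 2.39 and 3.34 FPKM in Brg1LKO livers, with no overlap and a log2 fold change of 0.71 (SE 0.35). Pparg was under the filter on low values, at 0.0135 to 0.0593 FPKM or an estimated 2 to 9 fragments per liver, too few to show a difference.

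Of the partner enzymes, none was past the threshold. Among the 7 listed partners of the elongation cycle, the largest change was that of Hacd1, a dehydratase, at 5.73 and 7.75 FPKM in WT and 3.37 and 5.77 FPKM in Brg1LKO livers, a log2 fold change of -0.59 with overlapping groups, and -0.21 without Brg1LKO replicate 1. Among the 6 genes that supply electrons to the desaturases, it was that of Cyb5r1, a cytochrome b5 reductase, at 0.669 and 1.41 FPKM in WT and 0.529 and 0.956 FPKM in Brg1LKO livers, a log2 fold change of -0.40, and 0.08 without WT replicate 2. Acsl1, an acyl-CoA synthetase, was at 2.21 and 3.93 FPKM in WT and 4.55 and 3.37 FPKM in Brg1LKO livers, a log2 fold change of 0.40, and -0.004 without WT replicate 1.

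Markers of cell types that express Scd genes strongly were near 0. Of 6 adipocyte markers 3 were at 0 in all 4 livers, and their summed level was 0.0194 and 0.0131 FPKM in WT and 0.04996 and 0.0118 FPKM in Brg1LKO livers. For 6 keratinocyte and sebocyte markers, of which 1 was at 0 in every liver, the sum was 0.176 and 0.239 FPKM in WT and 0.155 and 0.293 FPKM in Brg1LKO livers. Of 8 macrophage markers, 2 were past the threshold, Cd68 and Vsig4, both higher, beside 0.437% of all genes tested, and the sum was 39.0 and 39.3 FPKM in WT and 50.3 and 102.5 FPKM in Brg1LKO livers. The macrophage sum was thus highest in Brg1LKO replicate 2, the liver where the Scd genes were near WT and Elovl2 was highest, and its part in these results was not tested. Vsig4 was at 2.33 and 2.69 FPKM in WT and 2.79 and 9.32 FPKM in Brg1LKO livers, so it stood high in Brg1LKO replicate 2 alone. Cd68 was at 1.66 and 2.02 FPKM in WT and 3.90 and 7.01 FPKM in Brg1LKO livers. By flow cytometry and staining, the study reports liver macrophages as little changed by the knockout. Sums of 6 endothelial markers, at 22.7 to 28.0 FPKM, and of 6 stellate cell markers, at 18.4 to 22.1 FPKM, stayed within narrower ranges. The stellate sum was mostly Dcn, at 14.0 to 17.8 FPKM, and hides lower markers that varied more. Lrat was at 0.430 and 1.08 FPKM in WT and 0.313 and 0.711 FPKM in Brg1LKO livers. Col1a1 was at 0.152 and 0.289 FPKM in WT and 0.339 and 0.221 FPKM in Brg1LKO livers. The endothelial sum hides markers that moved apart. Stab1, Stab2, Clec4g and Kdr were lowest in Brg1LKO replicate 1, whereas Pecam1 and Lyve1 were lowest in Brg1LKO replicate 2. Kdr was at 1.502 and 1.96 FPKM in WT and 0.710 and 2.61 FPKM in Brg1LKO livers. Clec4g was at 2.91 and 3.35 FPKM in WT and 1.46 and 4.47 FPKM in Brg1LKO livers. Lyve1 went the other way, at 7.44 and 6.35 FPKM in WT and 7.73 and 4.88 FPKM in Brg1LKO livers. The part of these markers in the Scd values was not tested.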

How the data were processed

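RNA-seq was done on whole liver of 2 WT and 2 Brg1LKO mice, grouped by the genotype in the labels. The authors deposited FPKM per gene. According to the study, reads were trimmed with Trimmomatic, mapped with HISAT2 to GRCm38 and converted to FPKM with Cufflinks, whereas the submitters' processing notes name HISAT2 2.0.4 and StringTie 2.1.4. The labels name a BGIseq library protocol and the study an Illumina one. The read counts that the authors tested were not used here.

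Of 22103 entries, 27 symbols that had been turned into dates were restored. Fragment counts were estimated from the smallest steps of the low values and the GENCODE transcript length; 88.4% to 89.5% of low values per liver came within 0.1 of a whole number, so these counts are approximate, were not tested and cover counting error only. FPKM values with a mean of at least 0.1 over the 4 livers were compared as log2(FPKM + 0.1) by limma 3.58.1 in R 4.3.3 (eBayes with trend), without covariates, since the unit admits no count test. Fold changes on this scale understate the change of low genes. P-values were adjusted by Benjamini-Hochberg over 12346 genes. On simulated data with 200 changed genes and the same spread for every gene, the fit was tested first. That was a check of the code, and it does not cover genes whose livers differ as widely as those of the Scd genes. Alternatives were pseudocounts of 0.01 and 1, no filter or a filter at 1 FPKM, median-ratio and quantile scaling, eBayes without trend, a replicate block and leaving out each liver.

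The genes and lists were chosen with earlier results of these data known. Named genes were all 10 desaturases and elongases, key regulators and lipogenic enzymes set in the list, the pathway gene with the largest change in each subgroup, and the 3 genes nearest in profile to Scd1, Scd3 and Scd4. 1 gene that this rule names is not reported here. Bloc1s2, Chuk, Cd68, Vsig4, Kdr, Clec4g, Stab1, Stab2, Pecam1, Lyve1, Apob, Cps1, Apoa1, Serpina1a, Dcn, Lrat and Col1a1 were named after their values were seen. Alb was named as the marker of hepatocytes. Upstream sequences came from the RefSeq table for GRCm38.p6. SciPy 1.17.1, pandas 2.3.3, Biopython 1.88 and matplotlib 3.10.9 were used.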

Additional observations from a re-analysis of the deposited data

How the results depend on the processing

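The number of desaturase and elongase genes past the threshold, 4, became 2 with a pseudocount of 1 (Scd1 and Scd3), and 0 without the filter on low values, under median-ratio scaling and under quantile scaling, although the Scd log2 fold changes were 1.31 to 1.74, 1.34 to 1.76 and 1.23 to 1.76 there; it was 0 to 5 when 1 liver was left out, with 0 without WT replicate 2 or without Brg1LKO replicate 1. Over all genes, 121 became 18 with a pseudocount of 1, 80 without the filter and 68 with a filter at 1 FPKM, and 78 to 552 when 1 liver was left out. The share of these that were higher in Brg1LKO livers, 44.6%, became 42.5% and 43.9% under the scalings, 66.7% with a pseudocount of 1, 33.8% without the filter and 55.9% with the filter at 1 FPKM; it was 37.2% without WT replicate 1, 65.4% without WT replicate 2, 72.8% without Brg1LKO replicate 1 and 29.1% without Brg1LKO replicate 2. Genes at an adjusted p under 0.05, 0 as reported, were 269 without Brg1LKO replicate 1, 140 without Brg1LKO replicate 2 and 2 with the filter at 1 FPKM, and those at an unadjusted p under 0.05 were 91 to 1109. The count of pathway genes, 0, was 0 to 4 when 1 liver was left out, and the median log2 fold change of the 10 genes, 0.55, was 0.32 to 0.94. The cause of these shifts was not tested. The 4 Scd genes kept their direction when 1 liver was left out, at 0.25 to 2.36 for Scd1, 0.39 to 2.38 for Scd2, 0.58 to 2.9 for Scd3 and 0.65 to 2.75 for Scd4, each lowest without Brg1LKO replicate 1. The kept direction carries no support. The family was chosen for the rise of Scd3 and Scd4 in these livers, and Brg1LKO replicate 1 stood far above the rest. Without that liver, Brg1LKO replicate 2 lay between the WT livers for Scd1.

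The log2 fold change reversed without WT replicate 1 for Fads1, Fads2, Insig1 (-0.09) and Acsl1, and without WT replicate 2 for Srebf1, Mlxipl and Cyb5r1. It reversed without Brg1LKO replicate 1 for Elovl1, Elovl3, Nr1h3, Insig2 and Thrsp, without Brg1LKO replicate 2 for Srebf1 (0.08) and Insig1, and under median-ratio scaling for Srebf1 (0.03). The ranges over the 4 omissions were -0.39 to 0.64 for Fads1, -0.12 to 0.95 for Fads2, -0.53 to 0.10 for Elovl1, -1.17 to 0.03 for Elovl3, -0.22 to 0.21 for Srebf1, -1.04 to 0.49 for Nr1h3, -1.13 to 0.04 for Mlxipl, -0.57 to 1.48 for Insig1, -0.65 to 1.20 for Insig2, -0.004 to 0.80 for Acsl1, -0.52 to 2.54 for Thrsp and -0.89 to 0.08 for Cyb5r1. With the replicate number as a replicate block, 4 of the 10 genes and 108 of all genes were past the threshold. Deviations of livers with the same number correlated at 0.0307 across 12346 genes, which leaves out a shift common to all genes. The median-ratio factors of WT and Brg1LKO livers were 0.9109 and 0.8848 for replicate 1 and 1.127 and 1.108 for replicate 2. Whether the numbers pair the livers is not given in the labels and was not settled here. Where 1 liver was left out, the lone liver was assumed to vary like the other group.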
